A study of Mus musculus with 3 samples.

Results

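The 8 genes described here are Cdh1, Klrg2, Cbr3, Kcnk13, Zfp280b, Gadd45g, Pkib and Samsn1, of 32285 genes counted in 3 single-cell libraries of mouse spleen B cells. They were chosen by their UMI counts and shares of cells with a UMI, which were described as very low in cells of mice given R848 and higher when IL-4 was given as well. Their values in that contrast are therefore given as a description with no test. The mice were wild-type females of BXD2, a recombinant inbred strain prone to lupus-like autoimmunity, and their age was not stated. All of them received 40 µg per 20 g of body weight of R848, a small molecule that activates TLR7, a sensor of single-stranded RNA. The IL-4+R848 mice were injected 2 h earlier with 5 µg of IL-4 held in a complex with 25 µg of BVD4-1D11, an antibody to IL-4 that lengthens its action. The R848 mice were injected with 25 µg of that antibody alone, so both groups carried it. Both injections were repeated 2 days on, and 2 days after that the spleens of 3 mice per treatment were collected.

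B cells were enriched by negative selection and run as 3 sets, each a 10x 5' library that mixed cells of both treatments. The labels do not say whether a set held 1 mouse per treatment, so the p-values below measure only the spread between sets, which may be technical. Each cell's treatment was read from its hashtag. The names of the hashtags in the files mark a control and an IL-4 treated sample, and they were taken as R848 and IL-4+R848, a pairing that the labels do not spell out. Sets 1 to 3 held 96866964 to 107244246 gene UMIs (unique molecular identifiers, 1 per captured transcript). After filtering there were 35116 cells, with medians of 4447 to 5932 UMIs per R848 cell and 5199 to 6994 per IL-4+R848 cell. Pairs of libraries shared 219 to 289 cell barcodes.

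IL-4 binds a receptor on B cells made of Il4ra and the common gamma chain, and the Janus kinases attached to it phosphorylate STAT6, which enters the nucleus and binds DNA. In B cells this route is known for raising CD23 and MHC class II, for class switching to IgE and IgG1, and for survival. The listed genes encode proteins of unlike kinds. Cdh1 is E-cadherin, a calcium-dependent adhesion protein of epithelia that is bound by the lymphocyte receptors KLRG1 and CD103. Klrg2 encodes a C-type lectin-like membrane protein, and Kcnk13 a tandem-pore potassium channel. Cbr3 is a carbonyl reductase, a cytosolic enzyme that uses NADPH. Pkib is an inhibitor peptide of protein kinase A, and Samsn1 an adaptor with SH3 and SAM domains that dampens B cell activation. Gadd45g belongs to the stress-induced Gadd45 proteins, which bind the kinase Map3k4, and Zfp280b is a zinc finger protein.

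On mouse build GRCm38 with GENCODE M21, all 8 are protein-coding genes. Cdh1 (ENSMUSG00000000303) lies at chr8:106603351-106670246 and Klrg2 (ENSMUSG00000071537) at chr6:38625693-38637242. Cbr3 (ENSMUSG00000022947) lies at chr16:93683215-93690990 and Kcnk13 (ENSMUSG00000045404) at chr12:99964499-100062682. Zfp280b (ENSMUSG00000049764) lies at chr10:76032650-76043234 and Gadd45g (ENSMUSG00000021453) at chr13:51846678-51848468. Pkib (ENSMUSG00000019876) lies at chr10:57631981-57741112 and Samsn1 (ENSMUSG00000022876) at chr16:75858793-76022281. Klrg2 and Samsn1 are on the minus strand and the others on the plus strand. Samsn1 overlaps an antisense gene, Gm15555, which had 3 UMIs in all libraries together. The promoters are shown because the genes were listed for moving together with IL-4 and STAT6 recognises the spaced palindrome TTCNNNNGAA, while other STAT proteins prefer TTCNNNGAA. The RefSeq promoter table (GRCm38.p6) held 8 promoters of 7 of the genes, and Cdh1 was not among them. The 250 bases before the start site are printed 5′ to 3′ for the 3 promoters with a match and for Klrg2 and Cbr3, which were at or next to 0 UMIs without IL-4. Capitals mark a match to either palindrome.

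Klrg2 (chr6:38637240-38637489, minus strand): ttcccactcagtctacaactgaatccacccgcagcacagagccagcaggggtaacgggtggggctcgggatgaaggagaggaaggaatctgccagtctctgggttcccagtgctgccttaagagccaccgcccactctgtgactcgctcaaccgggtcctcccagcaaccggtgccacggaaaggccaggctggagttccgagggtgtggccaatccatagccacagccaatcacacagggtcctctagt
Cbr3 (chr16:93682969-93683218, plus strand): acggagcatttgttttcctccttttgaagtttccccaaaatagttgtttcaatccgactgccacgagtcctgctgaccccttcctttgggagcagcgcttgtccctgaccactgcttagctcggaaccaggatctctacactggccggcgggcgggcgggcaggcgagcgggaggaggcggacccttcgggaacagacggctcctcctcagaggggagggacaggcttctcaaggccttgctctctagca
Kcnk13 (chr12:99964249-99964498, plus strand): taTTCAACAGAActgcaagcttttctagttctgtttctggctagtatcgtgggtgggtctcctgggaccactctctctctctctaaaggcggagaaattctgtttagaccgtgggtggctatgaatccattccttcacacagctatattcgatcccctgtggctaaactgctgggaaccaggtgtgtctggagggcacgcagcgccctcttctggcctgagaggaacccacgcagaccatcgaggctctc
Pkib upstream start (chr10:57631731-57631980, plus strand): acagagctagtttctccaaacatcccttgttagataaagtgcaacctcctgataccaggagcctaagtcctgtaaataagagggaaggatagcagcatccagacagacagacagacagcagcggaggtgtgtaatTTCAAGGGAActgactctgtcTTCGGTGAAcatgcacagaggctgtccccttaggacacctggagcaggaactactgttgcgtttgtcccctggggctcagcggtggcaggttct
Pkib downstream start (chr10:57645619-57645868, plus strand): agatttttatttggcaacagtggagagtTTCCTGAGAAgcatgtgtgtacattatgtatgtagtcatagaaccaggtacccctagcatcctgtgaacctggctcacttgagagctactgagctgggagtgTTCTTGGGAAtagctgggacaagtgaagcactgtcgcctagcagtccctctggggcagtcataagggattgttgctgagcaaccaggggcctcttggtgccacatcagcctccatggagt

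TTCNNNNGAA occurred in 3 of the 8 promoters and TTCNNNGAA in 1, against 5.85% and 7.02% of 32851 promoters of the same length. Both motifs read the same on either strand, and the matches did not overlap each other. Kcnk13 held TTCNNNNGAA with its first base at -248. Pkib held it at -115 before its upstream start and at -222 and -120 before its downstream start. Pkib's upstream start also had TTCNNNGAA at -94. The printed windows of Klrg2 and Cbr3, and those of Gadd45g, Samsn1 and Zfp280b, did not contain these letters. The Samsn1 window (chr16:75909267-75909516) belongs to a start inside the gene, so the bases before its outermost start were not searched.

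Follicular-like cells, named by markers such as Ighd, Ccr7 and Fcer2a, were the largest class, with 5952 R848 and 9887 IL-4+R848 cells. They made up 29.2 ± 1.37% of R848 cells and 66.9 ± 2.60% of IL-4+R848 cells (SD, n = 3 sets). They joined 3 clusters that the treatments filled unequally. Cluster 0 held 6.82% IL-4+R848 cells, cluster 1 held 94.7% and cluster 2 held 99.35%, so the class is made of different clusters in the 2 treatments. Cluster 0 raised all 6 follicular markers (mean log2 1.31) and cluster 2 raised 5 (0.33). Within the class 5 of the 6 were lower with IL-4 and 0 higher, at summed levels of 2450 to 2685 against 3703 to 4649 CPM. Of 6 transitional markers 2 were higher and 3 lower with IL-4, at summed levels of 936 to 948 against 791 to 830 CPM. The listed genes were left out of clustering, but Gadd45g, Il4i1, St7, Klhdc2 and Lifr led cluster 2 by fold. A further cluster of 2220 cells, cluster 5, raised all 6 follicular markers but had a marginal zone marker, Fcrl5, among its leading genes and was left unnamed; 12.1% of it were IL-4+R848 cells. IL-4+R848 follicular-like cells were deeper than R848 ones, at medians of 5844 against 4180 UMIs per cell. Levels below are UMIs per 1000000 gene UMIs (CPM) in the summed cells of each set.

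Cdh1, Klrg2 and Cbr3 were at or next to 0 in R848 follicular-like cells and were found in all 3 sets with IL-4. Cdh1 had 0 UMIs in each set with R848 and 42, 49 and 59 UMIs with IL-4+R848, or 2.04, 2.15 and 3.11 CPM. Klrg2 also had 0 UMIs in each R848 set, and 46, 58 and 55 UMIs with IL-4+R848, or 2.23, 2.54 and 2.90 CPM. Cbr3 had 1 UMI in R848 cells, in set 2, and 169, 122 and 128 UMIs with IL-4+R848, or 8.21, 5.34 and 6.74 CPM. For these 3 genes the lowest IL-4+R848 set was far from the highest R848 set. Against a floor of 3 UMIs over the whole R848 group, IL-4+R848 cells had a level at least 21.7-fold higher for Cdh1. For Klrg2 the level was at least 22.97-fold higher. Cbr3 was 181.6-fold higher, with a 95% interval of 32.4 to 7190 that covers counting error only. For Cdh1 and Klrg2, 0 of 5952 R848 cells had a UMI, which allows a share of up to 0.0504%.

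Kcnk13 and Zfp280b were low but present without IL-4. Kcnk13 stood at 2.43, 1.84 and 1.39 CPM with R848 and at 16.95, 17.04 and 16.5 CPM with IL-4+R848. Zfp280b stood at 3.21, 2.19 and 3.22 CPM with R848 and at 15.5, 16.2 and 16.4 CPM with IL-4+R848. In both genes the treatments did not overlap and the IL-4+R848 sets lay close together. The pooled ratio was 8.94 for Kcnk13 (95% counting interval 6.75 to 12.1) and 5.56 for Zfp280b (4.41 to 7.09).

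Gadd45g, Pkib and Samsn1 were not near absent without IL-4, and for them the data go against the description under which they were listed. Gadd45g was at 43.2, 74.4 and 67.1 CPM with R848 and at 307.5, 381.3 and 450.5 CPM with IL-4+R848. Pkib was at 72.3, 84.3 and 79.5 CPM with R848 and at 234, 285 and 279 CPM with IL-4+R848. Samsn1 was at 41.0, 73.6 and 44.5 CPM with R848 and at 200.2, 227.7 and 214.5 CPM with IL-4+R848. All 3 were higher in every IL-4+R848 set than in any R848 set, and Samsn1's set 2 was high among the R848 sets. The pooled ratios were 6.15 for Gadd45g (5.85 to 6.47), 3.39 for Pkib (3.24 to 3.54) and 4.07 for Samsn1 (3.86 to 4.30). In R848 follicular-like cells 18.4 ± 4.27% had a Gadd45g UMI, 27.7 ± 4.99% a Pkib UMI and 19.3 ± 7.05% a Samsn1 UMI. All 8 genes had every IL-4+R848 set above every R848 set, as did 9.15% of the 16933 genes with a UMI. This contrast chose the 8 genes, so their count is not evidence. By edgeR's quasi-likelihood test of the same contrast, with Benjamini-Hochberg (BH) adjustment, 10.7% of 10987 tested genes rose and 9.57% fell past a threshold of 0.05.

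**Figure D1:**
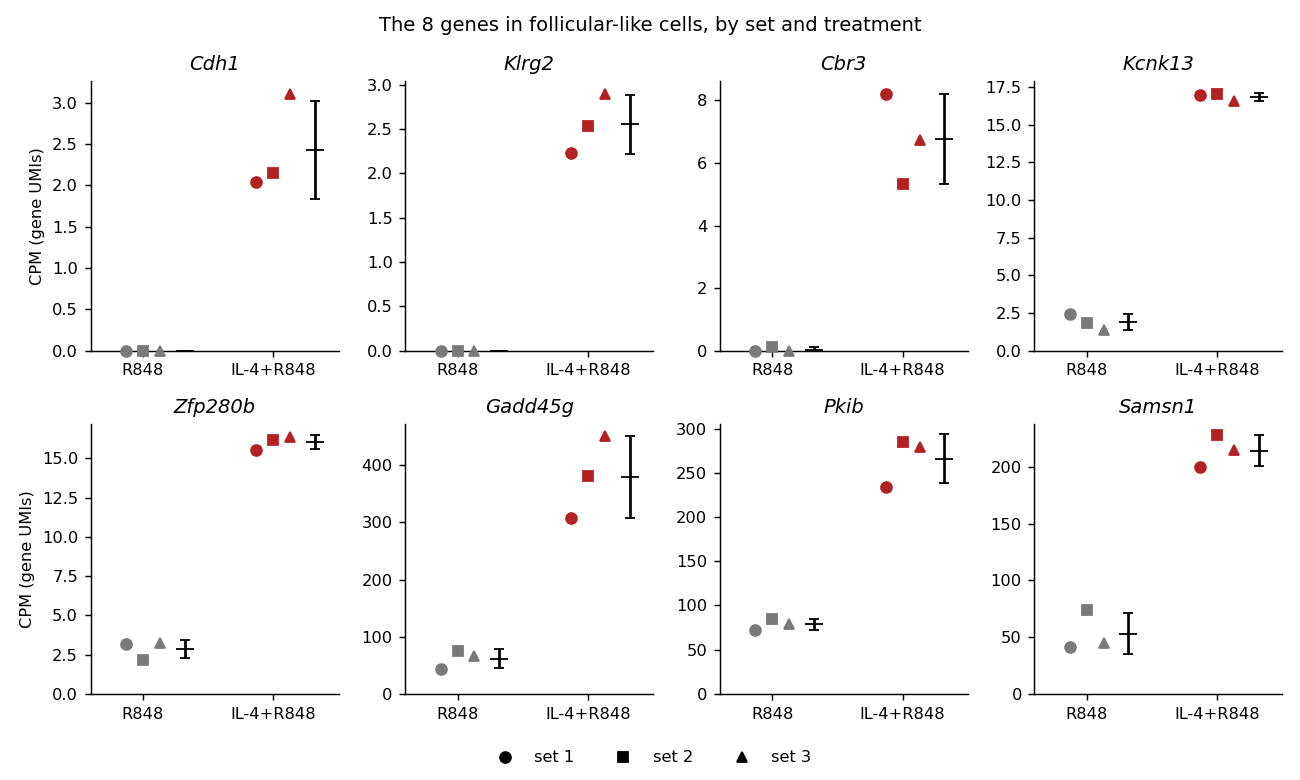
Level of each gene in follicular-like cells in CPM (y axis, linear from 0, its own range for each gene) by treatment (x axis); each point is 1 set, and the bar beside them is the mean ± SD over 3 sets. Cdh1 and Klrg2 lie at 0 in the 3 R848 sets, while Gadd45g, Pkib and Samsn1 lie between 41.0 and 84.3 CPM there.

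The way the UMIs were spread over cells differed between the scarce and the abundant genes. With IL-4, 1.35% of follicular-like cells had a Cdh1 UMI, 1.24% a Klrg2 UMI and 3.66% a Cbr3 UMI. Of the 133 cells with Cdh1, 87.2% had exactly 1 UMI and the highest had 2. The highest cell had 4 UMIs of Klrg2 and 4 of Cbr3, 3 of Kcnk13 and 5 of Zfp280b. Gadd45g was found in 64.3% of cells, with a median of 3 UMIs among them and up to 35. Pkib was found in 70.04% (up to 19 UMIs) and Samsn1 in 59.2% (up to 15). With R848 none of the 51 cells with Kcnk13 or the 78 with Zfp280b had more than 1 UMI.

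Depth differed between treatments, so the shares were also taken with each cell thinned to 3000 UMIs, which left out 1051 R848 and 722 IL-4+R848 cells. Thinned, Gadd45g was found in 13.2% of R848 and 49.05% of IL-4+R848 cells, Pkib in 20.15% and 50.08%, and Samsn1 in 13.65% and 41.2%. Kcnk13 went from 0.606% to 4.92% and Zfp280b from 0.868% to 4.23%. Cdh1 was at 0.758%, Klrg2 at 0.609% and Cbr3 at 2.09% of thinned IL-4+R848 cells. Every gene kept the direction of its unthinned share.

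NK cell-like cells, which should lack most B cell transcripts, were looked at with free RNA in mind. Their UMIs of the 8 genes may also be their own or come from a second cell, so they do not measure free RNA. They numbered 148 with IL-4+R848 at a median of 7374 UMIs, and the myeloid genes Lyz2, S100a8 and Mpo were also among their leading genes. Kcnk13 and Klrg2 were found in 0 of them, which allows a share of up to 2.03%, and Pkib in 4.73%. Cdh1 was found in 1 cell (0.676%), Cbr3 in 4 (2.7%) and Zfp280b in 11 (7.43%), next to 1.35%, 3.66% and 8.50% of follicular-like cells. For those 3 genes and Klrg2 the number of NK cell-like cells was too small to separate these shares from the follicular-like ones. R848 follicular-like cells came from the same mixed libraries. Of those 5952 cells, 0 had a UMI of Cdh1 or Klrg2, which allows a share of up to 0.0504%, and 1 had a UMI of Cbr3. The part of free RNA was not tested. Gadd45g (29.7%) and Samsn1 (36.5%), which NK cells are known to express, were frequent in NK cell-like cells, but their CPM there moved little with treatment. Gadd45g stood at 37.9 CPM with R848 and 53.5 with IL-4+R848, and Samsn1 at 65.7 and 56.9. Zfp280b was higher with IL-4 in NK cell-like cells too. It was at 0, 8.38 and 2.12 CPM with R848 and at 8.83, 11.3 and 12.7 CPM with IL-4+R848. The ratio was 4.35 (counting interval 1.23 to 23.45), on 3 and 15 UMIs. Cbr3 and Pkib overlapped between treatments there. In thinned R848 plasmablast-like cells Gadd45g was in 4.71% of cells, Pkib in 4.07% and Samsn1 in 5.50%. Immunoglobulin genes took 41.9% of their UMIs, against 1.74% in R848 follicular-like cells, so thinning left fewer UMIs of other genes. Unthinned, the shares were 16.2%, 14.9% and 19.5%, against 18.4%, 27.7% and 19.3% of R848 follicular-like cells. Plasmablast-like cells are deeper and may express these genes themselves, so their shares do not measure free RNA.

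The genes were then followed through 7 other B cell states. Transitional-like, marginal zone-like, germinal center-like, activated-like, plasmablast-like and cycling-like cells were named by marker lists. One further cluster, led by S100a6 and Zbtb32 and raising 6 of 7 age-associated B cell markers but not Itgax, is called the Zbtb32 cluster. Every IL-4+R848 set was above every R848 set for 6 of the 8 genes in transitional-like cells (all but Klrg2 and Zfp280b) and in germinal center-like cells (all but Cdh1 and Zfp280b). It was so for 5 in plasmablast-like cells (all but Cdh1, Klrg2 and Zfp280b) and for all 8 in the Zbtb32 cluster. In marginal zone-like cells, where Cdh1 and Klrg2 had no UMI, it was so for 3 genes, Gadd45g, Pkib and Samsn1. In activated-like cells it was so for 5 of the 7 genes with a UMI (all but Klrg2 and Cbr3), and in cycling-like cells for 6 of 7 (all but Klrg2). Among all genes with a UMI such an order was seen for 5.58% in transitional-like, 4.10% in germinal center-like, 4.28% in marginal zone-like and 4.22% in plasmablast-like cells. It was seen for 5.14% in the Zbtb32 cluster, 4.51% in activated-like and 4.05% in cycling-like cells. The rule that listed the genes used these states too, so the counts are a description.

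Cdh1 was found with IL-4 in few states. Its IL-4+R848 level was 2.77 ± 1.93 CPM in transitional-like cells, 2.43 ± 0.589 CPM in follicular-like cells and 1.49 ± 0.237 CPM in the Zbtb32 cluster. The first pair overlapped between sets, and the Zbtb32 cluster lay below the follicular-like sets without overlap. The transitional-like level rests on 4 UMIs and that of the Zbtb32 cluster on 8. Plasmablast-like cells had 2 UMIs, and marginal zone-like, activated-like, germinal center-like and cycling-like cells 0.

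Klrg2 was highest in the Zbtb32 cluster, at 0.802, 4.87 and 6.58 CPM in sets 1 to 3. That spread overlapped the follicular-like sets (2.56 ± 0.332 CPM). In germinal center-like cells it had 13 UMIs with IL-4+R848 and 0 with R848, at least 10.9-fold higher. Plasmablast-like cells went the other way, with 3 UMIs against 10 (ratio 0.681, counting interval 0.120 to 2.65), an interval that includes no change.

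Cbr3 was above all follicular-like sets (6.76 ± 1.43 CPM) in the Zbtb32 cluster, at 10.02 ± 0.869 CPM. In transitional-like cells it was at 25.0, 4.87 and 3.36 CPM in sets 1 to 3, so that their higher mean, 11.1 CPM, rests on set 1, with 10 of the 15 UMIs. Sets 2 and 3 of transitional-like cells lay below every set of the Zbtb32 cluster and of follicular-like cells. Its ratio in the Zbtb32 cluster was 17.6 (53 UMIs against 3, counting interval 5.69 to 87.8). From cycling-like cells (1.32 CPM) down to plasmablast-like cells (0.694 CPM) the neighbouring states overlapped, and activated-like cells had 0 UMIs.

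Kcnk13 had its highest IL-4+R848 level in follicular-like cells (16.8 ± 0.263 CPM), above the transitional-like sets (10.2 ± 3.28 CPM) without overlap. The Zbtb32 cluster (8.39 CPM), marginal zone-like (7.69 CPM) and cycling-like cells (7.001 CPM) followed, each overlapping the next. Plasmablast-like cells were lowest at 0.986 ± 0.093 CPM, on 17 UMIs against 2 with R848 (ratio 19.3, counting interval 4.58 to 172).

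Zfp280b was the gene whose order of states was least like the others. It was highest in the Zbtb32 cluster, at 20.1, 31.6 and 31.3 CPM with IL-4+R848 against 6.31, 5.81 and 6.48 CPM with R848. Cycling-like (16.5 CPM) and follicular-like cells (16.03 CPM) followed. In transitional-like cells, where Kcnk13 and Gadd45g were high, Zfp280b was at 2.5, 4.87 and 3.36 CPM in sets 1 to 3 with IL-4+R848 and at 4.26, 5.06 and 4.28 CPM with R848. It was lower with IL-4 in each set there, while the treatments overlapped, and the ratio was 0.826 (0.287 to 1.96), on 6 and 41 UMIs. Its ratios in germinal center-like and plasmablast-like cells were 1.48 (1.13 to 1.94) and 1.42 (1.19 to 1.68), and there the sets of the treatments overlapped.

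Gadd45g, Pkib and Samsn1 all had their highest IL-4+R848 mean in follicular-like cells and their lowest in plasmablast-like cells. Gadd45g fell in order from follicular-like (380 ± 71.5 CPM) to transitional-like (259 ± 82.7 CPM), which overlapped, and then to cycling-like cells (150.0 CPM), which lay below both. Pkib was at 266 ± 27.9 CPM in follicular-like cells, above the transitional-like sets (198 CPM) without overlap. Samsn1 did not separate follicular-like (214 ± 13.8 CPM), activated-like (201 ± 49.3 CPM) and cycling-like cells (197 ± 26.2 CPM). In plasmablast-like cells the 3 genes were at 41.9 ± 5.92, 24.1 ± 6.39 and 31.5 ± 8.84 CPM. Immunoglobulin genes took 40.3% of UMIs in IL-4+R848 plasmablast-like cells and 1.76% in follicular-like cells. Left out of the total, they put Gadd45g at 70.4 CPM in plasmablast-like cells, still the lowest of its B cell states.

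The ratio between treatments also varied by state for these 3 genes. For Gadd45g it ranged from 1.96 in plasmablast-like (1.77 to 2.15) to 6.15 in follicular-like cells. For Pkib it was 1.53 in marginal zone-like cells (1.38 to 1.69), the lowest of the 8 states, and 3.39 in follicular-like cells, the highest. For Samsn1 it was 5.25 in the Zbtb32 cluster (4.40 to 6.31) and 4.97 in cycling-like cells (4.35 to 5.68), against 1.68 in plasmablast-like cells (1.50 to 1.89). Whether the ratios differ between states was not tested.

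**Figure D2:**
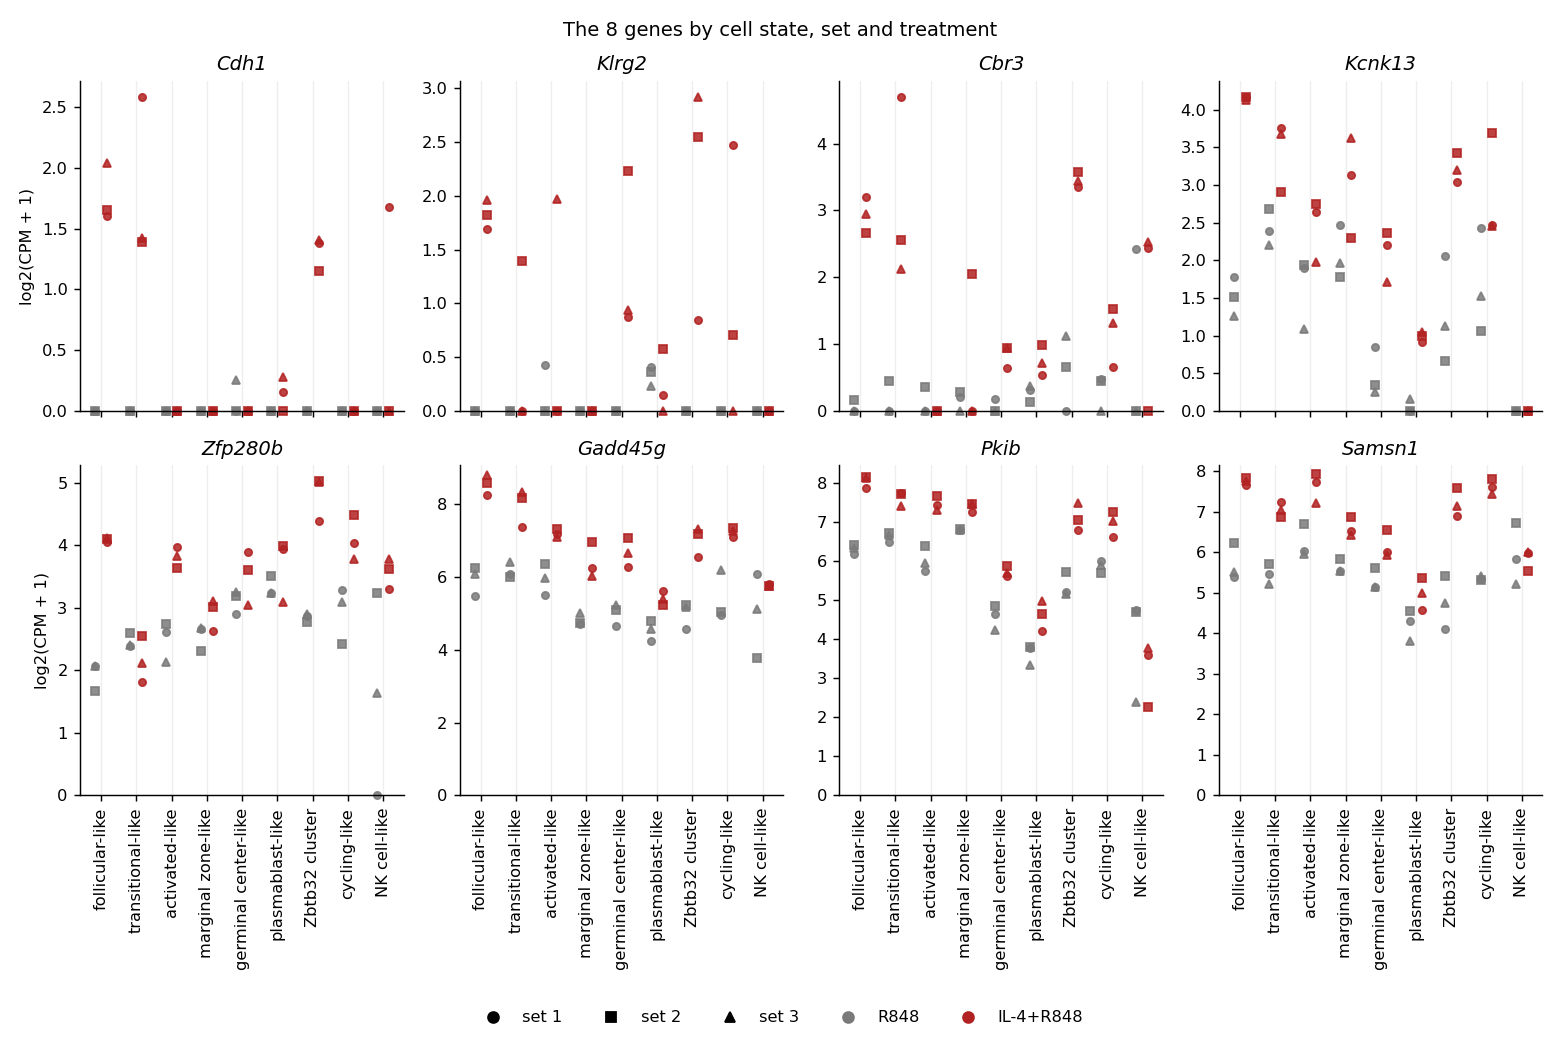
Level of each gene on a log2(CPM + 1) scale (y axis, its own range for each gene) in 8 B cell states and NK cell-like cells (x axis); each point is 1 set, grey for R848 and red for IL-4+R848, with the shape giving the set. The red points of Zfp280b are highest in the Zbtb32 cluster and overlap the grey ones in transitional-like cells.

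Within the follicular-like class, the IL-4+R848 cells of cluster 2 carried most UMIs of the 3 scarcest genes. These clusters were made from the same cells, so the values have no test. Cdh1 stood at 0.526 ± 0.470 CPM in cluster 1 (5666 cells) and 6.12 ± 0.545 CPM in cluster 2 (3810 cells). Klrg2 stood at 1.26 ± 0.425 and 5.09 ± 1.28 CPM, and Cbr3 at 2.20 ± 0.455 and 15.8 ± 4.26 CPM. In the 411 IL-4+R848 cells of cluster 0, Cdh1 and Klrg2 had 0 UMIs and Cbr3 had 2. Kcnk13 differed less between clusters 1 and 2 (16.1 ± 0.557 and 19.4 ± 1.05 CPM), and Zfp280b was at 14.3 ± 0.970 and 19.99 ± 1.47 CPM. Gadd45g was at 229 ± 46.2 and 671 ± 88.8 CPM, Pkib at 213 ± 21.0 and 374 ± 30.5 CPM, and Samsn1 at 156 ± 10.8 and 325.5 ± 18.3 CPM. In the 315 R848 cells of cluster 1 Gadd45g was at 72.6 ± 13.7 CPM, within the spread of its level in R848 cells of cluster 0 (60.98 ± 16.6 CPM). In the unnamed cluster 5, Cdh1, Klrg2 and Cbr3 had 0 UMIs in 1952 R848 cells and 1, 4 and 2 UMIs in 268 IL-4+R848 cells.

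The surface antibodies allowed a comparison that does not use the IL-4 contrast. IL-4+R848 follicular-like cells were ranked by the UMIs of an antibody within each set, and the 1 in 3 cells with the most were compared with the 1 in 3 with the fewest, with the set as a block. They are called high and low cells of that antibody. All 8 genes passed the filter on low counts in each of the 4 splits, and p-values were adjusted over all genes of a split. A gene scarce in the high cells can pass that filter through the low cells alone, or the reverse. Cdh1 and Klrg2 had means of 0.988 to 1.25 CPM in CD21-high and IgD-high cells, and Cdh1 1.01 CPM in IgM-low cells. They may have passed in this way, and their p-values and calls in those splits carry that limit. CD21 is the complement receptor encoded by Cr2, high on marginal zone and mature B cells and low on immature ones. IgD and IgM are the antigen receptor isotypes of naive cells, and CD23 is the low-affinity IgE receptor and an IL-4 target.

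Of the 8 genes, 7 were lower in CD21-high cells and 0 were higher, with 15.3% of 10123 tested genes lower and 14.9% higher. Their median log2 change was -1.07, against 0.0068 over all tested genes. Cdh1 was at 5.21, 4.98 and 5.51 CPM in CD21-low cells of sets 1 to 3 and at 0.371, 0.674 and 2.17 CPM in CD21-high cells (log2 fold change -2.24 ± 0.38 SE, edgeR BH-adjusted p = 0.00121). Set 3, with the most Cdh1 in CD21-high cells, made the change smaller, and without it the log2 change was -3.11. Klrg2 was at 4.54, 5.60 and 6.46 CPM in CD21-low and 0.866, 1.01 and 1.09 CPM in CD21-high cells (-2.35 ± 0.26, edgeR BH-adjusted p = 7.76e-05). Cbr3 was at 17.5, 12.6 and 12.9 CPM in CD21-low and 3.34, 1.91 and 2.44 CPM in CD21-high cells (-2.38 ± 0.17, edgeR BH-adjusted p = 2.45e-06). The adhesion gene, the lectin-like gene and the reductase gene thus fell by similar steps, with no overlap between low and high cells. Gadd45g was at 541, 636 and 743 CPM in CD21-low and 168, 218 and 252 CPM in CD21-high cells (-1.49 ± 0.03, edgeR BH-adjusted p = 3.51e-09).

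The other genes differed less by CD21. Samsn1 was at 280 ± 15.6 CPM in CD21-low and 165 ± 13.6 CPM in CD21-high cells (-0.66 ± 0.04, edgeR BH-adjusted p = 9.92e-07). Zfp280b was at 19.5 ± 1.26 and 12.3 ± 1.47 CPM (log2 change -0.56 ± 0.11, edgeR BH-adjusted p = 0.00317), and did not pass with DESeq2 (adjusted p = 0.197). Pkib was at 310 ± 28.4 and 240 ± 26.9 CPM (log2 change -0.26 ± 0.03, edgeR BH-adjusted p = 0.000151), and missed the threshold without the block (adjusted p = 0.0509). Kcnk13 was at 19.2, 19.4 and 14.8 CPM in CD21-low and 14.2, 16.5 and 17.1 CPM in CD21-high cells. Its low and high cells overlapped (-0.06 ± 0.12, edgeR BH-adjusted p = 0.756).

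**Figure D3:**
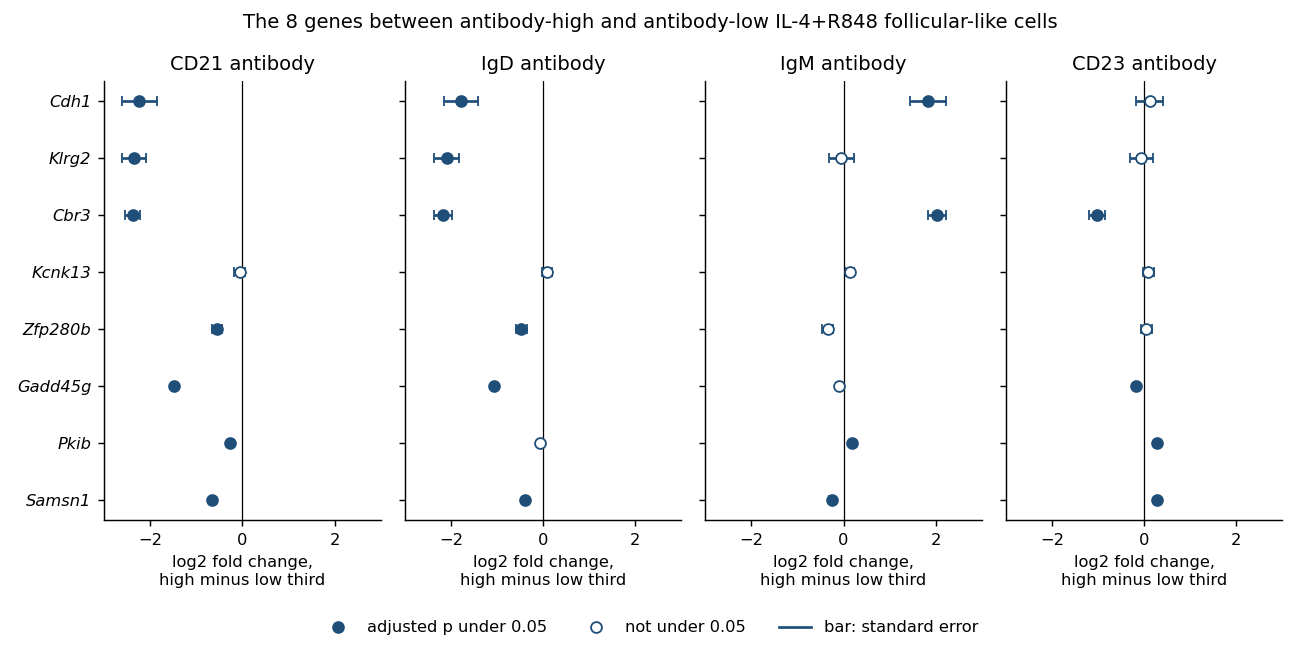
Log2 fold change of each gene between antibody-high and antibody-low cells (x axis; bars are the standard error of the edgeR fit over 3 sets) for 4 surface antibodies in IL-4+R848 follicular-like cells; filled points have an adjusted p under 0.05. Cdh1, Klrg2 and Cbr3 lie near -2 for CD21 and IgD, and Cdh1 and Cbr3 near +2 for IgM while Klrg2 lies next to 0.

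Cluster membership and depth moved with CD21. Cluster 2 made up 61.8% to 68.7% of CD21-low and 13.8% to 21.4% of CD21-high cells of a set. Median gene UMIs were 4152 to 5977 in CD21-low and 5788 to 8221 in CD21-high cells. Of 5 tested transitional markers 4 were lower and 1 higher in CD21-high cells, at summed levels of 814 to 823 CPM against 1126 to 1173 CPM in CD21-low cells. Of 8 tested marginal zone markers 6 were higher and 0 lower, and of 7 tested plasmablast markers 1 was higher and 6 lower. Of 6 tested germinal center markers 0 were higher and 5 lower, at summed levels of 61.6 to 67.7 CPM against 103.7 to 130.1 CPM in CD21-low cells. Of 6 tested follicular markers 3 were higher and 3 lower. Of 7 T cell markers, Cd3e, Cd4 and Cd8a were at 0 in CD21-low and CD21-high cells. All 7 together were at 31.7 to 37.5 CPM in CD21-low and 17.5 to 19.2 CPM in CD21-high cells. The 1 T cell marker tested was lower in CD21-high cells. Summed NK cell markers were at 2.31 CPM or less. The part of depth and of the B cell stages in the difference was not tested.

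With CD21-low and CD21-high cells taken inside each cluster, a comparison added after the data were seen, fewer of the genes passed. In cluster 1, where 6 of the 8 passed the filter on low counts, 3 were lower, against 4.46% of genes tested. These were Gadd45g (-1.12, edgeR BH-adjusted p = 6.73e-08), Zfp280b (-0.70, edgeR BH-adjusted p = 0.00678) and Samsn1 (-0.385, edgeR BH-adjusted p = 0.000501). Cbr3 was lower in CD21-high cells of cluster 1 in all 3 sets, at 1.37, 1.31 and 1.66 CPM against 4.57, 2.90 and 2.67 CPM, without passing the test (-1.21, edgeR BH-adjusted p = 0.0733). In cluster 2, 2 of the 8 were lower, against 1.96% of genes tested. Gadd45g was at 818 ± 84.0 CPM in CD21-low and 520 ± 45.5 CPM in CD21-high cells of cluster 2 (-0.57, edgeR BH-adjusted p = 1.85e-05), and Cbr3 at 23.5 ± 6.21 and 10.3 ± 2.83 CPM (-1.12, edgeR BH-adjusted p = 0.00499). Cdh1 (8.3 ± 2.6 and 4.05 ± 1.57 CPM) and Klrg2 (7.66 ± 2.41 and 2.99 ± 0.251 CPM) were lower in all 3 sets there, without passing the test (edgeR BH-adjusted p = 0.221 and 0.056).

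**Figure D4:**
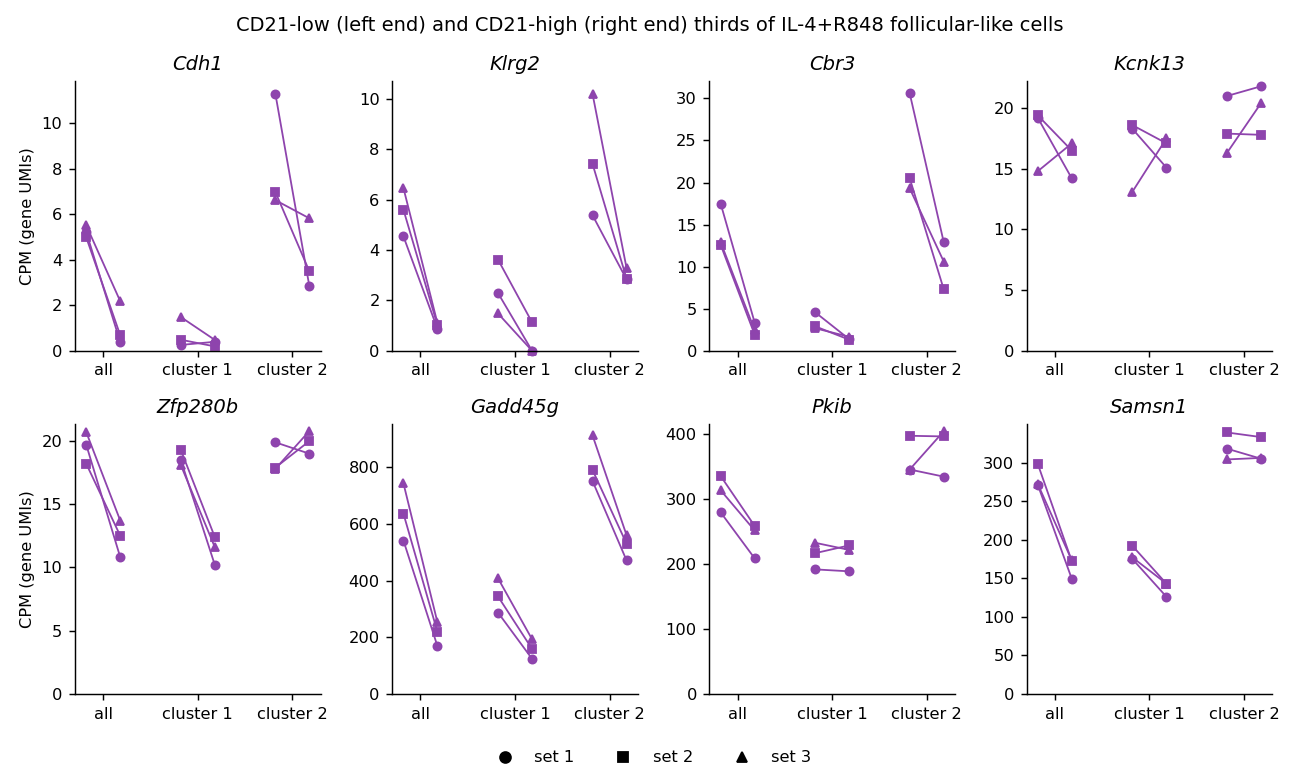
Level of each gene in CPM (y axis, linear from 0, its own range for each gene) in the CD21-low (left end of each line) and CD21-high cells (right end) among IL-4+R848 follicular-like cells, over the whole class and inside clusters 1 and 2 (x axis); each line is 1 set. All 3 lines of Gadd45g fall in each of the 3 positions, while those of Kcnk13 cross.

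By IgD, 6 of the 8 genes were lower in the high cells and 0 higher, with 11.8% of tested genes lower and 11.0% higher. Cdh1 was at 4.31, 4.20 and 4.88 CPM in IgD-low and 0.375, 0.918 and 2.46 CPM in IgD-high cells (-1.78 ± 0.37, edgeR BH-adjusted p = 0.00291). Without set 3 the log2 change of Cdh1 was -2.55. Klrg2 (-2.09 ± 0.28) and Cbr3 (-2.17 ± 0.19) were lower in IgD-high cells of all 3 sets as well (edgeR BH-adjusted p = 9.15e-05 and 2.27e-06). Gadd45g was lower at 248 ± 47.5 against 558 ± 88.4 CPM (-1.06 ± 0.03, edgeR BH-adjusted p = 3.66e-10), as was Samsn1 at 178 ± 13.9 against 253 ± 15.7 CPM (-0.40 ± 0.04, edgeR BH-adjusted p = 7.78e-06). Zfp280b was lower as well (-0.47 ± 0.12, edgeR BH-adjusted p = 0.011), and not past the threshold without set 1 (adjusted p = 0.103) or set 2 (0.0675). With DESeq2 neither Zfp280b (adjusted p = 0.516) nor Cdh1 (0.0917) passed. Kcnk13 (0.09, edgeR BH-adjusted p = 0.634) and Pkib (-0.06, edgeR BH-adjusted p = 0.434) did not pass. Cluster 2 made up 54.1% to 62.97% of IgD-low and 19.7% to 23.8% of IgD-high cells. Median gene UMIs were 4072 to 5998 in IgD-low and 5632 to 8000 in IgD-high cells. Of 5 tested transitional markers 4 were lower and 1 higher in IgD-high cells. Of 7 tested germinal center markers 5 were lower, and of 7 plasmablast markers 6, with 0 higher in either list. No split inside a cluster was made for IgD, and the part of these shifts in the IgD differences was not tested.

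By IgM the genes separated. Cbr3 was higher in IgM-high cells, at 15.1, 9.17 and 10.5 CPM against 3.59, 1.56 and 3.28 CPM in IgM-low cells (2.03 ± 0.20, edgeR BH-adjusted p = 0.000148). Cdh1 was higher too, at 3.0, 3.14 and 5.61 CPM against 0.936, 1.56 and 0.519 CPM (1.83 ± 0.39, edgeR BH-adjusted p = 0.0144). Klrg2, which went with these 2 genes by CD21 and IgD, was at 2.73, 2.41 and 2.53 CPM in IgM-high and 2.34, 3.41 and 1.90 CPM in IgM-low cells, which overlapped (-0.05 ± 0.28). Whether Klrg2 differs from Cdh1 or Cbr3 in its IgM difference was not tested. Pkib was higher (0.18, edgeR BH-adjusted p = 0.0137) and Samsn1 lower (-0.26, edgeR BH-adjusted p = 0.00511) by small steps, and neither passed without the block (adjusted p = 0.39 and 0.0948). Zfp280b (-0.34, edgeR BH-adjusted p = 0.107), Kcnk13 (0.14, edgeR BH-adjusted p = 0.494) and Gadd45g (-0.10, edgeR BH-adjusted p = 0.146) did not pass. In all, 3 of the 8 were higher and 1 lower, with 3.64% of tested genes higher and 4.58% lower. Without set 3 the Cdh1 difference was 1.25 (edgeR BH-adjusted p = 0.102) and without set 2 it was 2.44, and Pkib did not pass without set 1 (adjusted p = 0.059) or set 3 (0.0555). Gadd45g passed as lower without set 2 (-0.14, edgeR BH-adjusted p = 0.0285). Cluster 2 made up 28.2% to 36.4% of IgM-low and 43.1% to 45.2% of IgM-high cells. Of 6 tested follicular markers 5 were lower in IgM-high cells and 0 higher. Summed T cell markers were at 39.8 to 52.1 CPM in IgM-low and 11.7 to 13.05 CPM in IgM-high cells. The part of these shifts in the IgM differences was not tested.

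By CD23, itself an IL-4 target, 2 of the 8 were higher and 2 lower in the high cells, with 3.21% of tested genes higher and 2.89% lower. Pkib was at 286 ± 36.3 CPM in CD23-high and 245 ± 17.7 CPM in CD23-low cells (0.28 ± 0.05, edgeR BH-adjusted p = 0.00235), and Samsn1 at 232 ± 21.2 and 198 ± 13.8 CPM (0.29 ± 0.04, edgeR BH-adjusted p = 0.000867). Cbr3 was lower at 4.74 ± 0.704 against 10.1 ± 3.49 CPM (-1.02 ± 0.18, edgeR BH-adjusted p = 0.00403), and Gadd45g was lower too (-0.17 ± 0.03, edgeR BH-adjusted p = 0.00675). These CD23 calls depended on the settings. With the antibody taken as a share of all surface antibody UMIs, Gadd45g was higher in CD23-high cells (0.53, edgeR BH-adjusted p = 4.37e-08), Cdh1 passed as higher (0.92, edgeR BH-adjusted p = 0.0428) and Cbr3 did not pass. Without the block none of the 4 passed (adjusted p = 0.0607 to 0.773). Cbr3 did not pass without set 1 (0.088), Pkib did not without set 2 (0.0539), and Gadd45g did not without set 2 (0.0988) or set 3 (0.0513).

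Some single cells had UMIs of several of the genes. With follicular-like cells thinned to 3000 UMIs, 18.3% of 9165 IL-4+R848 cells had UMIs of 3 or more of the 8 genes, against 0.347% of 4901 R848 cells. None of the 8 was found in 17.1% of IL-4+R848 and 59.4% of R848 cells. No cell had more than 5. The higher level of each gene with IL-4, by which the genes were chosen, by itself raises the share of cells with 3 or more. The share that unlinked genes would give was not calculated, so this difference does not show that the genes go together.

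**Figure D5:**
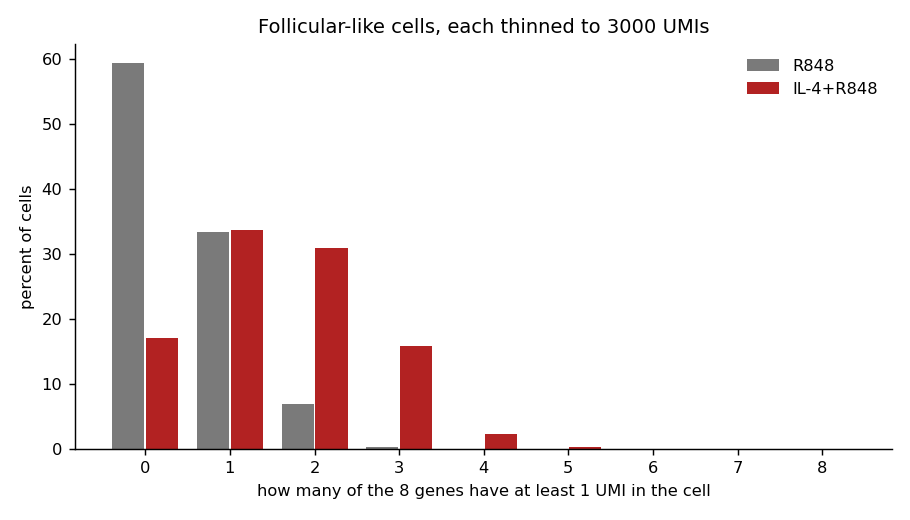
Share of follicular-like cells (y axis, percent) by how many of the 8 genes had a UMI in the cell (x axis), with every cell thinned to 3000 UMIs, for R848 and IL-4+R848 cells of the 3 sets together. Most R848 cells have 0 (59.4%), and IL-4+R848 cells are spread over 0 to 3.

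Among thinned IL-4+R848 follicular-like cells, Cbr3 was found in 17.6 ± 4.76% of the cells with a Cdh1 UMI (22, 18 and 30 cells in sets 1 to 3) and 2.12 ± 0.337% of the others, and was more frequent in carriers in all 3 sets. Klrg2 did not go with Cdh1 in this way, at 0 of the Cdh1 carriers and 0.683 ± 0.0956% of others, a difference that so few carriers cannot show. Gadd45g was found in 85.4 ± 7.87% of Cdh1 carriers, 73.97 ± 3.74% of Klrg2 carriers and 75.1 ± 5.73% of Cbr3 carriers, against 48.5% to 48.97% of cells without them. The 1376, 1536 and 1584 cells with a Gadd45g UMI in sets 1 to 3 had each of the other 7 genes more often than the rest in all 3 sets. Pkib was in 54.3% against 46.4% of them, and Samsn1 in 47.7% against 34.5%. Cells of a set are not replicates, and these shares are a description.

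The genes were also compared across 50 sums of cells of 1 set, treatment and state, which share libraries and depth. The sums came from both treatments and included NK cell-like cells of set 3. A rise with IL-4, by which the genes were chosen, by itself raises r among them and with other genes that rise. These values are therefore a description and do not show that the genes go together apart from that rise. Cdh1 went most closely with Cbr3 (Pearson r of log2(CPM + 1) = 0.866). Kcnk13 went with Pkib (0.896), and Gadd45g with Samsn1 (0.873). Zfp280b was least like the others, with r from 0.153 (Pkib) to 0.659 (Klrg2). Of 11163 genes compared outside the list, Lifr was the most like Cbr3 (0.7425) and Gadd45g (0.892). Klhdc2 was the most like Klrg2 (0.730) and Zfp280b (0.810). E030030I06Rik was the most like Cdh1 (0.727), Tmem123 the most like Kcnk13 (0.888), 1700030K09Rik the most like Pkib (0.955) and Hipk2 the most like Samsn1 (0.912). Second in likeness were Tmem123 for Cdh1 and Gadd45g, Snx29 for Kcnk13 and Pkib, Ptrh2 for Cbr3, St7 for Klrg2, Nfil3 for Zfp280b and Scn4a for Samsn1.

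Few other genes went from absent to present as Cdh1, Klrg2 and Cbr3 did. In follicular-like cells 7 genes had at most 1 UMI with R848 and at least 100 with IL-4+R848, limits chosen after the values were seen. They were Cbr3 (419 UMIs with IL-4+R848), H2-M5 (205), Col15a1 (174), Klrg2 (159), Cdh1 (150), Gm48727 (120) and Emilin2 (106).

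The lists of related genes are read against all 10987 genes tested between treatments in follicular-like cells, of which 10.7% rose and 9.57% fell. A fit blocked by set called 1597 as higher and 1362 as lower. Of 14 IL-4 receptor and signalling genes 13 were tested, 4 rose and 4 fell, with a median log2 change of -0.17 against -0.01 over all tested genes. In the blocked fit 4 of them rose and 5 fell. Il4ra rose from 69.7 ± 3.84 to 89.1 ± 2.72 CPM (log2 change 0.45, edgeR BH-adjusted p = 0.000549), and Socs1, an inhibitor of the pathway, from 18.8 ± 4.8 to 44.5 ± 5.16 CPM (1.34, edgeR BH-adjusted p = 0.000174). Cish, another inhibitor, had 0.154 CPM with R848 and rose to 2.52 CPM with IL-4+R848 (edgeR BH-adjusted p = 0.00245). Socs3 fell from 42.4 ± 8.16 to 8.44 ± 2.25 CPM (-2.24, edgeR BH-adjusted p = 1.39e-05). The Janus kinase gene Jak1 fell from 234.7 ± 1.54 to 164.4 ± 6.79 CPM (-0.42, edgeR BH-adjusted p = 0.000248). Stat6 itself, at 50.2 ± 5.58 and 42.9 ± 2.03 CPM, did not change past the threshold (edgeR BH-adjusted p = 0.303). Of 20 known IL-4 and STAT6 targets 17 were tested, 8 rose and 2 fell (median 0.33), and 9 rose and 3 fell in the blocked fit. Among them Nfil3 was at 3.87 ± 1.06 and 92.8 ± 13.2 CPM (log2 change 4.69, edgeR BH-adjusted p = 5.64e-08). The gene of CD23 itself, Fcer2a, did not pass (edgeR BH-adjusted p = 0.454), with 284.6 ± 49.8 CPM and 287.8 ± 10.3 CPM, but passed upward in cells gated on the IgD antibody (log2 change 0.40, edgeR BH-adjusted p = 0.0421).

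Most relatives and partners of the 8 genes did not pass the test, which is also true of all 10987 tested genes (10.7% rose and 9.57% fell). It therefore says nothing particular about the relatives. More of them passed in the fit blocked by set, as did more of all genes. Among 11 E-cadherin partners and receptors 4 were tested, 0 rose and 0 fell, while 1 rose and 1 fell with the set as a block. The integrin gene Itgb7, at 73.2 ± 9.52 CPM without and 58.5 ± 14.99 CPM with IL-4 (edgeR BH-adjusted p = 0.325), passed downward in the blocked fit (log2 change -0.24, adjusted p = 0.0274). Ctnnb1, the catenin bound by E-cadherin, had 51.2 ± 3.52 CPM with R848 and 50.7 ± 1.27 CPM with IL-4+R848 (edgeR BH-adjusted p = 0.405). The other cadherin tested, Cdh17, was at 12.1 ± 3.49 CPM without and 15.5 ± 1.43 CPM with IL-4 (edgeR BH-adjusted p = 0.0906), and passed upward with the set as a block (adjusted p = 0.027). Klrg1 and Itgae, which encode receptors of E-cadherin, were at a mean of 0.148 CPM or less in both treatments. Cbr1, the reductase next of kin to Cbr3, had 15.5 ± 1.15 CPM with R848 and 15.7 ± 1.24 CPM with IL-4+R848 (edgeR BH-adjusted p = 0.452). Of 6 tested carbonyl reductase and NRF2 genes 0 rose and 1 fell, Nfe2l2, which encodes NRF2 (45.5 ± 4.25 to 29.1 ± 0.705 CPM, edgeR BH-adjusted p = 0.000764), a call lost in cells gated on the IgD antibody (adjusted p = 0.283).

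Of 2 tested tandem-pore channel genes, Kcnk10 rose from 0.33 ± 0.219 to 1.52 ± 0.0832 CPM (log2 change 2.26, edgeR BH-adjusted p = 0.00265), and Kcnk5 was at 4.53 ± 1.13 CPM without and 5.06 ± 0.761 CPM with IL-4 (edgeR BH-adjusted p = 0.432). Of the 6 Gadd45 family members and partners, 2 rose and 0 fell, and 3 rose and 1 fell with the set as a block. Gadd45b rose from 22.04 ± 2.42 to 26.3 ± 2.81 CPM (log2 change 0.35, edgeR BH-adjusted p = 0.0346), a call lost without set 1 (0.0621) or set 2 (0.258), in clusters made without the genes called between treatments (0.292) and in the IgD gate (0.246). Gadd45gip1 rose from 80.5 ± 1.26 to 89.4 ± 1.34 CPM (log2 change 0.25, edgeR BH-adjusted p = 0.00723), a call lost without set 1 (0.0637) or set 2 (0.0825), in clusters made without those genes (0.0674) and in the IgD gate (0.228). Gadd45a was at 27.7 ± 1.82 CPM without and 25.5 ± 3.04 CPM with IL-4 (edgeR BH-adjusted p = 0.91), and Map3k4 at 17.1 ± 1.04 CPM without and 13.1 ± 1.23 CPM with IL-4 (edgeR BH-adjusted p = 0.0673). Map3k4 passed as lower in the blocked fit (adjusted p = 0.0335). Of 6 tested protein kinase A subunits and inhibitors 0 rose and 1 fell, Prkacb (38.5 ± 1.46 to 29.0 ± 0.587 CPM, edgeR BH-adjusted p = 0.0076), a call lost without set 1 (0.0519) or set 3 (0.0591) and in the IgD gate (0.0828). Pkig, the paralog of Pkib, was at 247.7 ± 12.8 CPM without and 247.3 ± 3.94 CPM with IL-4 (edgeR BH-adjusted p = 0.271). The Samsn1 paralog Sash3 rose from 124.1 ± 2.56 CPM with R848 to 139.8 ± 1.70 CPM (edgeR BH-adjusted p = 0.00374), a call lost without set 2 (0.062). Sash1, at 0.554 ± 0.102 and 1.34 ± 0.615 CPM, missed the threshold (edgeR BH-adjusted p = 0.057), and passed upward in the blocked fit (0.0287). The Zfp280b paralogs Zfp280c and Zfp280d did not pass.

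Of 16 tested genes known to respond to cell handling 2 rose and 11 fell (median -0.86), and 3 rose and 11 fell in the blocked fit. Fos was among those that fell, from 475 ± 266 to 141 ± 51.4 CPM (edgeR BH-adjusted p = 0.00791), a call lost without set 2 (0.0507) and in the IgD gate (0.0683). Egr1 and Nr4a1, which also fell, are on the marker list that named activated-like cells, so this list does not tell handling from activation. The 2 that rose were the heat shock genes Hsp90aa1 and Hspa8. The part of handling or activation in the levels of the 8 genes was not tested.

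Cdh1, Klrg2 and Cbr3 stayed at or next to 0 UMIs in R848 cells when follicular-like cells were drawn in other ways. Of the 16 mean levels (8 genes in 2 treatments), 6 moved by more than the spread between sets in clusters made without treatment genes, and 10 did in the IgD gate. In clusters made without the 2379 genes called between treatments, Cdh1 and Klrg2 had 0 UMIs in R848 cells and 77 and 58 with IL-4+R848, and Cbr3 had 2 and 267. In cells gated on the IgD antibody alone the counts were 0 and 79 for Cdh1, 1 and 68 for Klrg2, and 2 and 222 for Cbr3. Zfp280b stood at 9.52 ± 1.35 CPM with IL-4+R848 in clusters made without the treatment genes, against 16.03 ± 0.437 CPM in the main clusters.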

How the data were processed

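The deposited files hold gene and antibody UMI counts per cell barcode, which per the file headers came from the authors' run of Cell Ranger 6.0.1; the submitters' processing notes name mm10, and Seurat 4.1.3 without its role. All 3 sets were used, and 0 per-sample columns were left out. Cells took the treatment of the hashtag that reached 64 UMIs and 4 times the other, 1 being added to each. Barcodes with both tags (1559, 940 and 1309 in sets 1 to 3) were removed. No doublet caller was run, so pairs of cells from the same treatment remain. Barcodes with fewer than 500 genes or with 10% or more mitochondrial UMIs were dropped. Clustering (scanpy 1.11.5, 2000 variable genes centred within sets, 30 components, 15 exact nearest neighbours, Leiden resolution 1 with leidenalg 0.10.2) left out the listed genes, the tested gene lists, immunoglobulin variable, T cell receptor, mitochondrial and ribosomal genes. Clusters were named by 17 marker lists; of 18 clusters, 5 stayed unnamed for low UMI counts, precursor genes or leading markers of another list.

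Counts were summed per set, treatment and state and fitted by the quasi-likelihood method of edgeR 4.0.16 after filterByExpr and TMM scaling, in R 4.3.3, without a block between treatments. CPM are per 1000000 summed gene UMIs. Sets pair the treatments because they share a library. In follicular-like cells the deviations of both treatments from their means correlated within a set, at 0.437, 0.347 and 0.362, over 2392 genes of at least 50 CPM. DESeq2 1.42.0, other filters, hashtag, cluster and antibody settings and leaving out each set were alternatives. From each gene list, up to 6 passing genes with the largest change could be named, and for short lists other tested genes. The genes, lists and tests were chosen with earlier results of these data known.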

Additional observations from a re-analysis of the deposited data

Results flagged for a closer look

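Zfp280b stood on opposite sides of R848 in 2 kinds of cells. In 1 state, transitional-like cells, its level was lower with IL-4+R848 than with R848 in each of the 3 sets, at 2.5 against 4.26 CPM in set 1, 4.87 against 5.06 in set 2 and 3.36 against 4.28 in set 3. In follicular-like cells it was higher with IL-4+R848 in each set, at 15.5 against 3.21 CPM, 16.2 against 2.19 and 16.4 against 3.22. The transitional-like values rest on 1, 3 and 2 UMIs with IL-4+R848 and 14, 14 and 13 with R848. There the treatments overlapped, the ratio was 0.826 with a counting interval of 0.287 to 1.96 that includes no change, and the gene did not pass the filter on low counts, so no fall is shown. The difference between the states was not tested.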

How the results depend on the processing

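The levels of the 8 genes in follicular-like cells moved by less than the spread between sets under looser cell filters, a stricter hashtag rule and leaving out each set, but by more for 6 of 16 levels in clusters made without treatment genes and 10 of 16 in the IgD gate. Counts of called genes moved more. With the set as a replicate block, germinal center-like calls went from 48 to 183 and marginal zone-like calls from 115 to 186; the other 6 states stayed within 1.5 times their count. edgeR called 0 genes in plasmablast-like cells (495 at an unadjusted p under 0.05), and 0 with the block (520). Follicular-like calls went from 2231 to 1365 in clusters made without treatment genes and 1049 in the IgD gate. Leaving out 1 set gave 1040 to 1595 calls in follicular-like, 28 to 84 in transitional-like (main 151), 78 to 138 in activated-like (128), 40 to 78 in marginal zone-like, 13 to 34 in germinal center-like, 1 to 3 in plasmablast-like and 43 to 100 in cycling-like cells (107), and 59 to 142 in the Zbtb32 cluster (207).

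In the antibody splits, without the replicate block 153 genes were called by CD23 (main 617), 1341 by IgD (2319) and 272 by IgM (831). DESeq2 called 241 by CD23, 970 by CD21 (main 3058), 557 by IgD and 244 by IgM, and gave only 3 of the 8 genes an adjusted p by CD23 and IgM. The antibody as a share of surface antibody UMIs gave 1514 by IgM, and splitting inside cluster 1 or 2 gave 760 or 428 by CD21. Leaving out 1 set gave 265 to 444 by CD23, 2202 to 2783 by CD21, 1352 to 1817 by IgD and 579 to 872 by IgM. By CD21, 7 of the 8 genes were lower with the median split, with the share and without each set, and 6 with DESeq2 or without the block. By CD23, 0 of the 8 were called without the block.

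Most signs that turned did so where the change was near 0. By CD23 without 1 set, log2 changes ranged from -0.128 to 0.421 for Cdh1, -0.167 to 0.0543 for Klrg2, -0.0623 to 0.238 for Kcnk13 and -0.0768 to 0.184 for Zfp280b. With the share, CD23 gave 0.786 for Klrg2, 0.206 for Cbr3 and 0.531 for Gadd45g, and IgM gave 0.276 for Gadd45g, 0.261 for Klrg2 and -0.000534 for Kcnk13. By CD21, Kcnk13 ranged from -0.214 to 0.0688 without 1 set and was 0.196 in cluster 2, where Zfp280b was 0.187, Pkib 0.138 and Samsn1 0.0528; Pkib was 0.0169 in cluster 1. By IgD, Kcnk13 was -0.0395 with the median split, and Pkib passed with the share (-0.233). By IgM, Klrg2 ranged from -0.201 to 0.263 without 1 set. Between treatments, Pkig was -0.00122 in the IgD gate. The cause was not tested for any of these. Depth limits the scarce genes most: most cells with Cdh1, Klrg2 or Cbr3 had 1 UMI, so the share of cells that express them is not known.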
